A study of Mus musculus with 26 samples.

Results

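Genes of cell adhesion and cell junctions were examined in whole hearts of mouse embryos at embryonic day 12.5. They were taken as every probe set with a single annotated symbol for an integrin, cadherin, protocadherin, catenin, claudin, connexin, tight junction or desmosomal protein, vinculin, plakoglobin, talin, or an Ncam, Vcam or Icam molecule, with Cdh5 and Gja1 left out. This gave 77 probe sets of 57 genes, 34 on the A array and 43 on the B array, out of 13179 probe sets, with 6137 single gene symbols, in all. The mouse line is a model of congenital heart disease that lacks the NK2-specific domain of Nkx2.5, a transcription factor needed for normal heart development, and the labels name no driver, strain or litter. Wild-type hearts were numbers 1, 2, 7, 9 and N1. Heterozygous hearts were 5, 6, 12 and N2, and null hearts were 3, 4, 8 and N3. Each of the 13 hearts was measured on both arrays, and every genotype occurred in each run of heart numbers, 1 to 6, 7 to 12 and N. The labels do not say what these numbers stand for, nor whether the hearts came from different litters, so p-values measure only the spread between these hearts.

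Heart muscle cells are held together by the intercalated disc. There, cadherins bound to catenins join the actin filaments of neighbouring cells, desmosomes join their intermediate filaments, and connexins form the gap junctions through which the electrical impulse passes. Integrins are receptors made of an alpha and a beta chain, which bind the surrounding matrix and are tied to actin by talin and vinculin. Immunoglobulin-type adhesion molecules such as Vcam1 bind integrins on other cells, and in the mouse embryo Vcam1 is needed for the epicardium and the heart wall.

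Nkx2.5 regulates genes by binding DNA, and Gja5, the connexin of the atria and the fast conduction system, is one of its known targets in mouse heart. The promoter windows below come from RefSeq (GRCm38.p6), reach from 250 bases before to 50 bases after an annotated start, and show the Gja5 window and the only window of a tested member gene that held the NK2-type letters TNAAGTG. Capitals mark matches to these letters, searched on both strands.
Gja5, chr3:97032152-97032451, plus strand: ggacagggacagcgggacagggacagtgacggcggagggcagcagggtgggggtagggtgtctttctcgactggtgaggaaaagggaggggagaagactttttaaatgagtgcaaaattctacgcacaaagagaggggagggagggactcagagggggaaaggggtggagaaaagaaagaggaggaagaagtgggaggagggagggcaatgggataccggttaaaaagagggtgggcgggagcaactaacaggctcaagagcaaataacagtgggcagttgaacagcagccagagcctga
Gjb1, chrX:101381868-101382167, plus strand: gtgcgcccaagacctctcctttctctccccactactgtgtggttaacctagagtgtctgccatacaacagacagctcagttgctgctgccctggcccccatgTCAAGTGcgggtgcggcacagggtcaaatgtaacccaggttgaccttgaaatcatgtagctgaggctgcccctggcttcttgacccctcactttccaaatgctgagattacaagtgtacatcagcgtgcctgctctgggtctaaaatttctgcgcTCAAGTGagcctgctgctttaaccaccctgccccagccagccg
The Gja5 window held no match in its 300 bases. The Gjb1 window shown held 2 matches on the plus strand, the first beginning 148 bases before the start, and the other Gjb1 windows held none. Gjb1 encodes a connexin best known from liver and Schwann cells. Windows were available for 36 of the 57 member genes and for 15 of the 25 genes tested. Over all promoters 3790 of 32851 windows (11.5%) held the letters, against 6 of 44 windows (13.6%) of the member genes and 1 of 21 (4.76%) of those tested. These are matches of letters, not measured binding.

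Expression of the adhesion genes was detected for a minority of the probe sets, as it was over the whole arrays. A probe set was tested when at least 4 arrays exceeded a floor of 2 times the noise of the array table (887 on A, 1373 on B) and each genotype had at least 2 values. Over both arrays 4494 of 13179 probe sets were tested, where the latter count includes control probe sets. Of the 77 adhesion and junction probe sets, 30 were tested, 13 on A and 17 on B, which covered 25 genes. Another 44 never exceeded the floor, and the remaining 3, for Cdh11, Itga3 and Jup, exceeded it on 2, 3 and 1 arrays. Those 44 included every claudin probe set, vinculin, the epithelial cadherin Cdh1, the leukocyte integrin chain Itgb2 and the muscle integrin chain Itga7. A value below the floor says that the transcript was not measurable on these arrays, and 32 of the 57 genes had no tested probe set. Dspp, a tooth protein, was matched by its letters alone and was also dim.

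**Figure D1:**
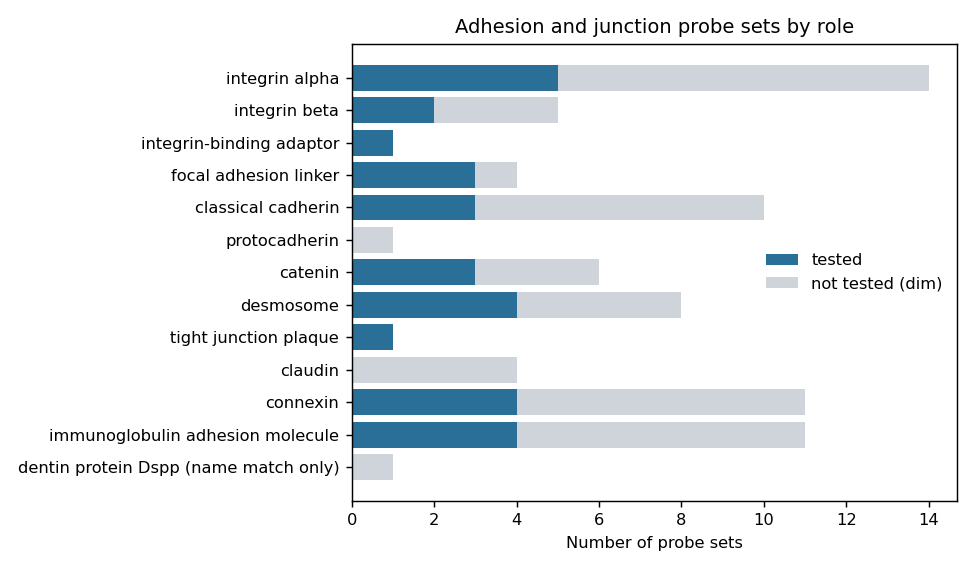
Number of probe sets of each role (horizontal axis) that were tested or too dim to test. Of 14 integrin alpha probe sets 5 were tested, of 11 connexin probe sets 4, and of 4 claudin probe sets 0.

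Among the 30 tested probe sets, 19 lay above the floor on every array with a value. Across hearts their highest value was between 1.44 times (1 of the Ncam1 probe sets) and 4.92 times (Itga6) their lowest, with a median of 1.73. Blank cells, which were left missing, affected 17 of the 30, and some had values in only 9 hearts. Most cells were blank on the A arrays of wild-type heart 1 and heterozygous hearts 6 and N2 and on the B arrays of wild-type hearts 9 and N1 and null heart 3. Pairs of hearts had Spearman correlations from 0.91 to 0.974 (A) and from 0.883 to 0.971 (B), over the probe sets without blank cells. No probe set carried Nkx2-5 as its only symbol, so the genotype labels were not checked on that transcript.

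No adhesion or junction gene passed the test between null and wild-type hearts. In limma, 0 of the 30 probe sets had an adjusted p under 0.05, against 1 of 4494 (0.0223%) over all tested probe sets. At an unadjusted p under 0.05 the counts were 0 of 30 and 108 of 4494 (2.4%). The members were split into 16 higher and 14 lower in null hearts, where 48.6% of all probe sets were higher, with a median log2 difference of 0.02 against -0.01 over all probe sets, and their differences ran from -0.44 to 0.45. For 26 of the 30 the 95% interval of the difference lay within 2-fold in either direction, and for 10 within 1.41-fold. Those 10 included Dsc2, Itgb1bp1, Cdh15, Gja4, Itga5 and the tested B-array probe set of Itga3, each under the floor in part of the hearts. Raising such values to the floor reduces their spread, so these narrow intervals do not bound the change in transcript. With values raised to the floor, as in all counts of overlap given here, the 2 genotypes overlapped for all 30, whereas 2.27% of all probe sets had no overlap. Whole hearts were measured, so fewer cells of a type and less RNA per cell cannot be told apart.

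Of the adherens junction genes, 3 of 10 classical cadherin probe sets and 3 of 6 catenin probe sets were tested. Ctnna1, Ctnnb1 and Cdh2 were above the floor in every heart with a value, with a highest value 1.49 to 1.64 times the lowest, while Cdh3 and Ctnnd1 spread 2.23 and 2.15 times and Cdh15 passed the floor in 4 of 9 hearts. Ctnna1, alpha-catenin, which links the complex to actin, read 20988, 19261, 19242 and 22190 in wild-type hearts 2, 7, 9 and N1. It read 19998 and 26144 in heterozygous hearts 5 and 12, and 20588, 18382, 17532 and 19506 in null hearts 3, 4, 8 and N3. Heterozygous heart 12 stood above all others and the null and wild-type ranges overlapped. The log2 difference between null and wild type was -0.10 ± 0.13 (SE).

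Ctnnb1, beta-catenin, which binds the cadherin tail and also carries Wnt signals, had the smallest p of all members in this comparison. Its values were 4618, 3806, 3743 and 4244 in wild-type hearts 2, 7, 9 and N1, and 3624, 2814 and 3852 in null hearts 3, 4 and N3. Null hearts 3 and 4 lay below every wild-type heart, while N3 lay within their range. The log2 difference was -0.27 ± 0.17, with an unadjusted p of 0.147 and an adjusted p of 1 in limma, and it was -0.13 without null heart 4. Cdh2, N-cadherin, the main cadherin of heart muscle, differed by -0.02 ± 0.15, from 6455 ± 485 (SD, n = 4) in wild-type to 6382 ± 799 (n = 3) in null hearts. Ctnnd1, p120-catenin, which keeps cadherins at the membrane, differed by 0.17 ± 0.26, Cdh3 (P-cadherin) by -0.11 ± 0.25 and Cdh15 (M-cadherin of muscle) by 0.03 ± 0.12. The sign for Cdh3 depended on the processing: it was 0.02 with quantile scaling and 0.19 without the mostly blank arrays.

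Of 8 desmosomal probe sets 4 were tested. Those 4 were higher in null hearts by 0.03 to 0.29 on the log2 scale and none passed. The other 4, of Jup, Dsc1 and Dsc2, were too dim to give a direction. Dsp, desmoplakin, which ties desmosomes to intermediate filaments, was measured by a pair of probe sets. The first, aa690887_at, read 5522, 5036, 4742 and 7257 in wild-type hearts 2, 7, 9 and N1, 5890 and 7804 in heterozygous hearts 5 and 12, and 7692, 4771, 6979 and 8269 in null hearts 3, 4, 8 and N3. Null heart 4 fell at the low end of the wild-type range and null heart N3 was the highest of all. Its difference was 0.29 ± 0.20 with an unadjusted p of 0.164 in limma. The second, aa600542_s_at, differed by 0.26 ± 0.26, and by 0.43 with heart-number lot as a block. The blocked value had an unadjusted p of 0.0457 and an adjusted p of 0.999 in limma, where 3.23% of all probe sets had an unadjusted p under 0.05. Dsg2 and Dsc2, the desmosomal cadherins, differed by 0.19 ± 0.24 and 0.03 ± 0.16. Markers of heart muscle cells ran the same way: all 13 tested probe sets of the 10 cardiomyocyte genes on the arrays were higher in null hearts, with a median of 0.28 and none called, and their part in these values was not tested.

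Of the 4 tested connexins 3 were lower and 1 higher in null hearts. Gja5 read 2353, 1714 and 1882 in wild-type hearts 1, 2 and 7. In heterozygous hearts 5, 6, 12 and N2 it read 2926, 2374, 686 and 501, and in null hearts 4, 8 and N3 it read 1766, 885 and 1391. Heterozygous hearts 12 and N2 and null heart 8 were under the floor, where values have no order. Of the null hearts only heart 4 reached into the wild-type range. Gja5 differed by -0.39 ± 0.28 between null and wild type, with a 95% interval from -1.01 to 0.23, and by -0.19 with lot as a block. Gja4, a connexin of arterial endothelium, differed by -0.19 ± 0.14 and was near the floor. Gjc1, a connexin of the early heart tube and nodes, read 1782, 2558, 1976, 2220 and 2329 in wild-type hearts 1, 2, 7, 9 and N1 and 2183, 1785, 1866 and 1936 in null hearts 3, 4, 8 and N3. These ranges overlapped fully, and its difference was -0.16 ± 0.16. Gjb1 differed by 0.12 ± 0.24. Gja1, the ventricular connexin outside the set, differed by -0.05 ± 0.15.

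Integrin chains did not pass either. Itgb1, the beta chain shared by most matrix-binding integrins, averaged 16490 ± 3080 (SD, n = 5) in wild-type, 17310 ± 3264 (n = 4) in heterozygous and 15760 ± 3521 (n = 4) in null hearts. The null to wild-type difference was -0.07, with a 95% interval from -0.46 to 0.32. Itgav, the chain of the vitronectin receptors, read 1665, 1587, 1823 and 1395 in wild-type hearts 2, 7, 9 and N1 and 2630, 1282, 2142 and 2522 in null hearts 3, 4, 8 and N3. Null hearts 3, 8 and N3 were above every wild-type heart and null heart 4 was below them all. The difference was 0.36 ± 0.28, with an unadjusted p of 0.212 and an adjusted p of 1 in limma. Itga6, a laminin-binding chain, spread from 2503 to 6786 in wild-type and from 2922 to 8510 in null hearts, and differed by 0.31 ± 0.36. The chains Itga3 (-0.21 ± 0.20 and 0.05 ± 0.18 by its tested probe sets), Itga5 (0.06 ± 0.17) and Itgb5 (-0.14 ± 0.18) and the adaptor Itgb1bp1 (-0.12 ± 0.14) also had log2 differences within the spread between hearts. Itga5 exceeded the floor in only 5 of 13 hearts. Another Itga3 probe set, too dim to be tested, exceeded the floor in 2 of 3 null, 1 of 4 heterozygous and 0 of 3 wild-type hearts.

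Talin, which activates integrins and ties them to actin, was measured by 3 probe sets of Tln1 that did not move together. The log2 differences between null and wild type were 0.22 ± 0.16 (aa009154_s_at), 0.45 ± 0.36 (a second, B-array probe set) and -0.44 ± 0.33 (x56123-2_f_at), and the second became -0.01 without null heart 8. The suffix _f_ marks probe sets that can pick up related sequences, and both B-array probe sets carry it. Of the immunoglobulin-type molecules, Icam2 of endothelium and platelets read 3576, 3968, 3596, 3741 and 4170 in wild-type hearts 1, 2, 7, 9 and N1, and 3080, 3205, 2878 and 4217 in null hearts 3, 4, 8 and N3. Null hearts 3, 4 and 8 were below all wild-type hearts, and N3 was above them all. The difference was -0.20 ± 0.16. Endothelial markers were lower in null hearts for 6 of 7 tested probe sets (median -0.23, none called), and their part in the Icam2 and Gja4 values was not tested. Vcam1 differed by 0.22 ± 0.19, Ncam1 by -0.06 ± 0.22 and 0.01 ± 0.35, and Tjp1, a scaffold of tight and adherens junctions, by 0.10 ± 0.20.

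**Figure D2:**
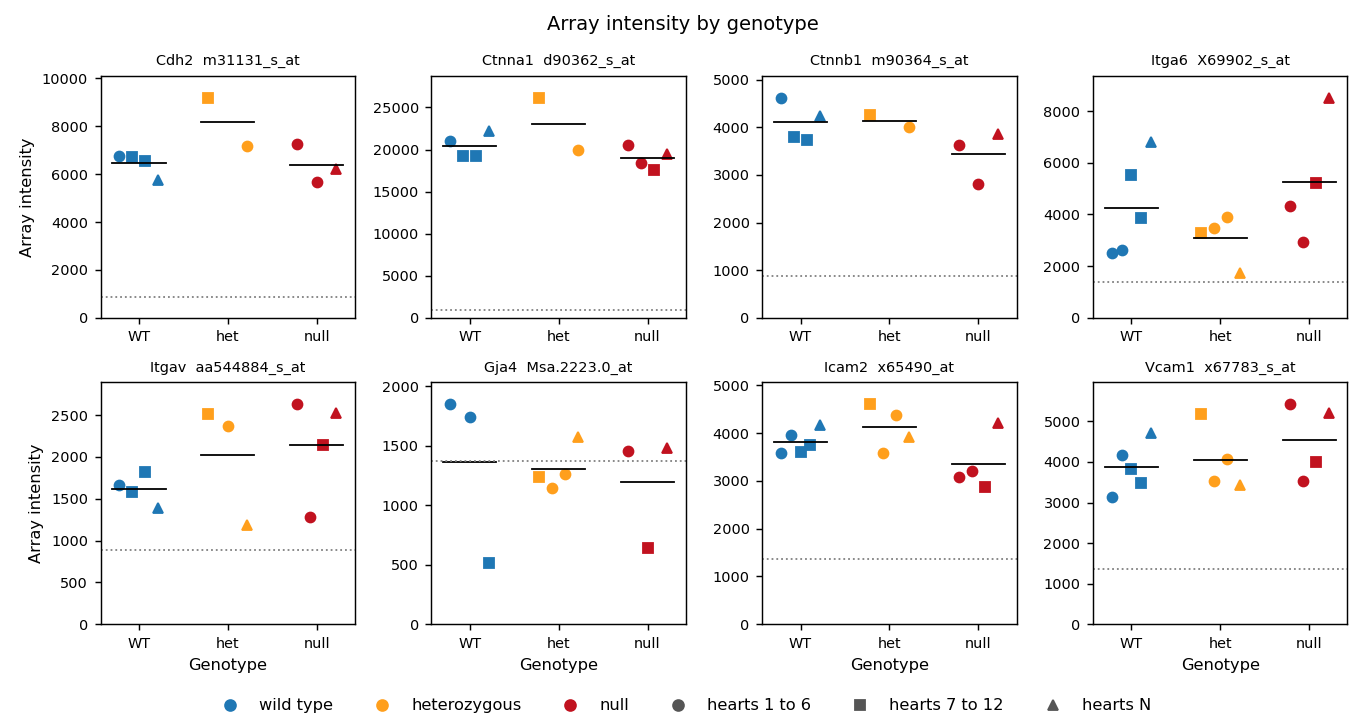
Array intensity of 8 members in each heart (points, coloured by genotype, shaped by heart number), with the group mean as a bar and the floor as a dotted line. The genotypes overlap in nearly every panel, and the Cdh2 values of 2 heterozygous hearts, 7195 and 9191, lie above the wild-type values.

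Heterozygous hearts did not differ from wild type in any member by the test. In limma 0 of 30 were called, against 0 of 4494 (0%) in all, and unadjusted p-values under 0.05 were found for 0 of 30 and 152 of 4494 (3.38%). The members' log2 differences ran from -0.56 to 0.36, with 14 higher (47.3% of all probe sets were) and 16 lower. Itga3 had the smallest p by its A-array probe set aa407068_rc_s_at. It read 1653, 2547, 3088 and 2857 in wild-type hearts 2, 7, 9 and N1, and 1786, 1890, 1977 and 1826 in heterozygous hearts 5, 6, 12 and N2. Wild-type heart 2 was the lowest of all and the other wild-type hearts were above every heterozygous heart. The difference was -0.40 ± 0.20, with an unadjusted p of 0.0626 and an adjusted p of 0.981 in limma, while the other tested Itga3 probe set gave -0.09 ± 0.17.

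Cdh2 was the 1 member of 30 whose heterozygous and wild-type hearts did not overlap, where 5.5% of all probe sets did not. On the values as deposited Cdh15 did not overlap either, but its heterozygous values, 559 and 461, and part of its wild-type values lay under the floor. Cdh2 read 7195 and 9191 in heterozygous hearts 5 and 12, the only heterozygous hearts with a value, and 6773, 6739, 6569 and 5740 in wild-type hearts 2, 7, 9 and N1. The difference was 0.34 ± 0.17 and did not pass (adjusted p = 0.981 in limma). On the A arrays, which hold this probe set and the first one of Itga3, the log2 ratio of the 3' to the 5' Gapdh control was higher by 0.16 in heterozygous than in wild-type hearts, with a p of 0.0159 by an exact permutation test that became 0.229 after adjustment for 16 comparisons. It was lower by 0.14 in null than in heterozygous hearts (exact permutation p = 0.0286, adjusted p = 0.229), and the part of this ratio in the members' values was not tested. The B-array probe set X07233_rc_at of Ncam1, the neural cell adhesion molecule also made by embryonic heart muscle, differed by -0.56 ± 0.35, and its other tested probe set by 0.00 ± 0.21. Gja4 differed by -0.21 ± 0.13, Dsc2 by -0.25 ± 0.16, Tjp1 by 0.30 ± 0.25 and Dsp by 0.29 ± 0.24 and 0.14 ± 0.31.

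Null and heterozygous hearts were also compared. Again 0 of 30 members were called, against 0 of 4494 (0%), and unadjusted p-values under 0.05 were found for 0 of 30 and 260 of 4494 (5.79%). Of the members 18 were higher in null hearts, as were 53.4% of all probe sets. The smallest p-values belonged to Cdh2 (-0.36 ± 0.18), Itga6 (0.72 ± 0.38) and Dsg2 (0.48 ± 0.25), each with an adjusted p of 0.79 in limma. Itga6 read 3464, 3907, 3288 and 1731 in heterozygous hearts 5, 6, 12 and N2 and 4337, 2922, 5210 and 8510 in null hearts 3, 4, 8 and N3. Null heart 4 lay inside the heterozygous range and the other null hearts above it. Groups did not overlap for Ctnnb1 and Cdh15, 2 of 30 members, against 7.7% of all probe sets. Each had values in only 3 null and 2 heterozygous hearts. The heterozygous values of Cdh15 lay under the floor of 887 and its null values, 921 to 1017, just above it. Icam2 differed by -0.31 ± 0.17, Ctnna1 by -0.27 ± 0.16, Ctnnd1 by 0.46 ± 0.27 and Dsc2 by 0.28 ± 0.17. This comparison shares the heterozygous hearts with the preceding one and the null hearts with the first.

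**Figure D3:**
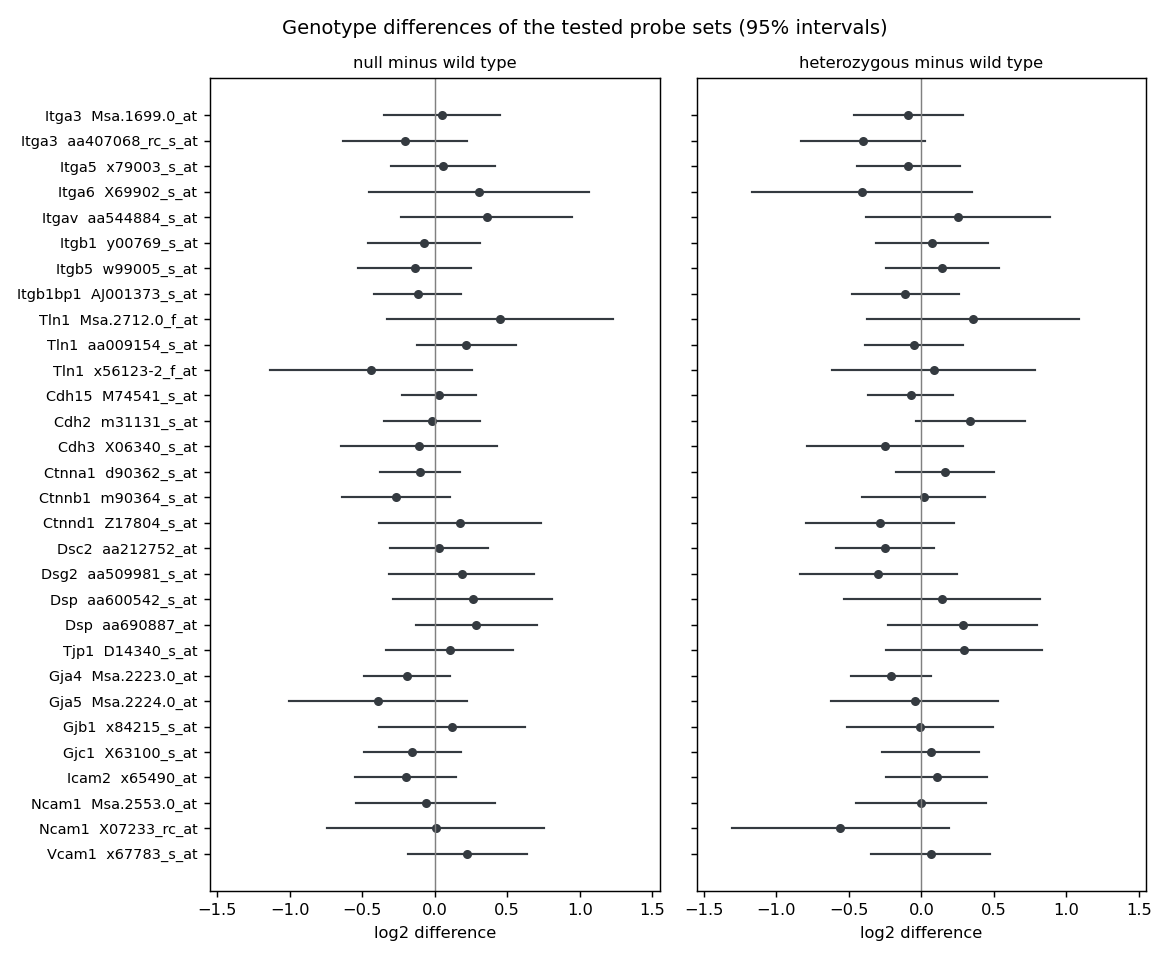
Log2 differences of the 30 tested probe sets (points) with 95% intervals (lines), null minus wild type on the left and heterozygous minus wild type on the right. All intervals include 0 in both panels.

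Heart numbers were then compared, with genotype in the model. Hearts 7 to 12 and N1 to N3 (7 hearts) were set against hearts 1 to 6 (6 hearts). In limma 1 of 30 members was called (3.33%), against 321 of 4494 probe sets (7.14%, or 3.87% counting those higher), and 6 of 30 had an unadjusted p under 0.05 (20%), against 24.7% of all. No member separated the lots without overlap, where 6.88% of all probe sets did. Of the members 21 were higher and 9 lower in the later numbers, where 52.1% of all probe sets were higher, but the count was 17 of 30 higher after cyclic loess scaling, 17 of 31 after quantile scaling and 17 of 29 after scaling on the probe sets without blank cells.

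The member called was the Tln1 probe set x56123-2_f_at. In hearts 1 to 6 it read 199 and 1270 (wild-type 1 and 2), 1541 and 2369 (heterozygous 5 and 6), and 1943 and 326 (null 3 and 4). In the later hearts it read 2680, 4366 and 2909 (wild-type 7, 9 and N1), 2534 and 3816 (heterozygous 12 and N2), and 1777 and 1730 (null 8 and N3). The 3 lowest values, all under the floor, were in hearts 1 to 6, and the later null hearts lay within the range of the earlier hearts. The log2 difference was 0.72 ± 0.20, a 1.64-fold rise, with an adjusted p of 0.0466 in limma. Within genotypes the later hearts were higher by 1.24 in wild-type, 0.70 in heterozygous and 0.10 in null hearts. The call ended when any one of 9 hearts was left out, namely wild-type 1, 2, 7, 9 or N1, heterozygous 5 or N2, or null 4 or 8, with differences of 0.61 to 0.78 and adjusted p-values of 0.0575 to 0.138. The other Tln1 probe sets gave -0.17 ± 0.13 (adjusted p = 0.418) and 0.32 ± 0.27 (adjusted p = 0.496), so the 3 probe sets did not share a direction.

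Dsp came next. Its probe set aa600542_s_at read 5995, 5748, 10187 and 5466 in hearts 2, 5, 3 and 4, and 8468, 7396, 8417, 11893, 12116 and 9646 in hearts 7, 9, N1, 12, 8 and N3. Null heart 3 sat among the later hearts and the other early hearts lay below all of them. The difference was 0.61 ± 0.17 and just missed the threshold (adjusted p = 0.051 in limma). Without null heart 3 it was 0.78 (adjusted p = 0.0126). It also passed without wild-type heart 9 (0.64, adjusted p = 0.0463) or null heart N3 (0.69, adjusted p = 0.0477). The other Dsp probe set gave 0.24 ± 0.17 (adjusted p = 0.413). Another desmosomal gene, Dsg2, went the opposite way, with 2911, 2206, 2115 and 2637 in hearts 2, 5, 3 and 4 and 1592, 1835, 1879, 1420, 1374, 1881 and 2550 in hearts 7, 9, N1, 12, N2, 8 and N3. Only null heart N3 of the later hearts reached the range of the earlier ones. The Dsg2 difference was -0.45 ± 0.17 (adjusted p = 0.126).

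Itgb1 read 13419, 13912, 17679, 15682, 13060 and 12800 in hearts 1, 2, 5, 6, 3 and 4. It read 20622, 18597, 21705 and 20196 in hearts 7, 9, 12 and 8, and 15898, 14172 and 16970 in hearts N1, N2 and N3. The 4 hearts numbered 7 to 12 were above every other heart, and the N hearts lay within the range of hearts 1 to 6. Over all later hearts the difference was 0.34 ± 0.12 (adjusted p = 0.0971). Without the N hearts it was 0.52 and passed (adjusted p = 0.0159 in limma), and it passed too without heterozygous heart N2 (0.45, adjusted p = 0.0218).

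Gja5 read 2353, 1714, 2926, 2374 and 1766 in hearts 1, 2, 5, 6 and 4, and 1882, 686, 501, 885 and 1391 in hearts 7, 12, N2, 8 and N3. Only wild-type heart 7 of the later hearts fell inside the earlier range, and hearts 12, N2 and 8 were under the floor. The difference was -0.53 ± 0.17 (adjusted p = 0.0782), and within genotypes it was -0.09 in wild-type, -0.94 in heterozygous and -0.35 in null hearts. Without the genotype term it was -0.57 with an adjusted p of 0.0455 in limma. Of the remaining members, Ncam1 (X07233_rc_at) differed by 0.55 ± 0.26, Itga6 by 0.48 ± 0.27, Cdh3 by 0.38 ± 0.19 and Itga3 by 0.28 ± 0.15, all with adjusted p-values of 0.198 or more. Cdh2 (0.04 ± 0.14), Ctnna1 (0.03 ± 0.11), Ctnnb1 (0.03 ± 0.16) and Gjc1 (0.02 ± 0.13) differed less between the lots than their standard errors.

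**Figure D4:**
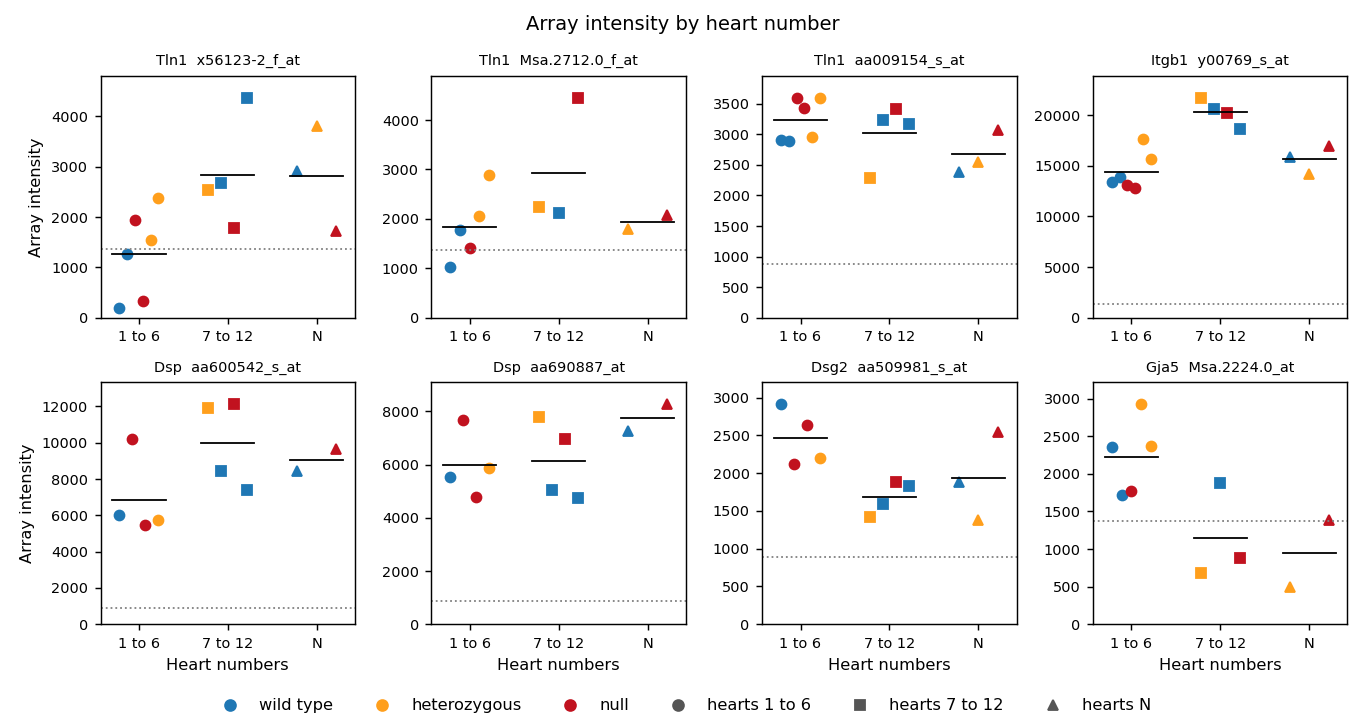
Array intensity in each heart by heart number (points coloured by genotype), with the mean of each lot as a bar and the floor as a dotted line, for 3 probe sets of Tln1, 2 of Dsp, and Itgb1, Dsg2 and Gja5. Itgb1 is highest in hearts 7 to 12, Gja5 is lower in most later hearts, and the Tln1 probe sets differ from one another.

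**Figure D5:**
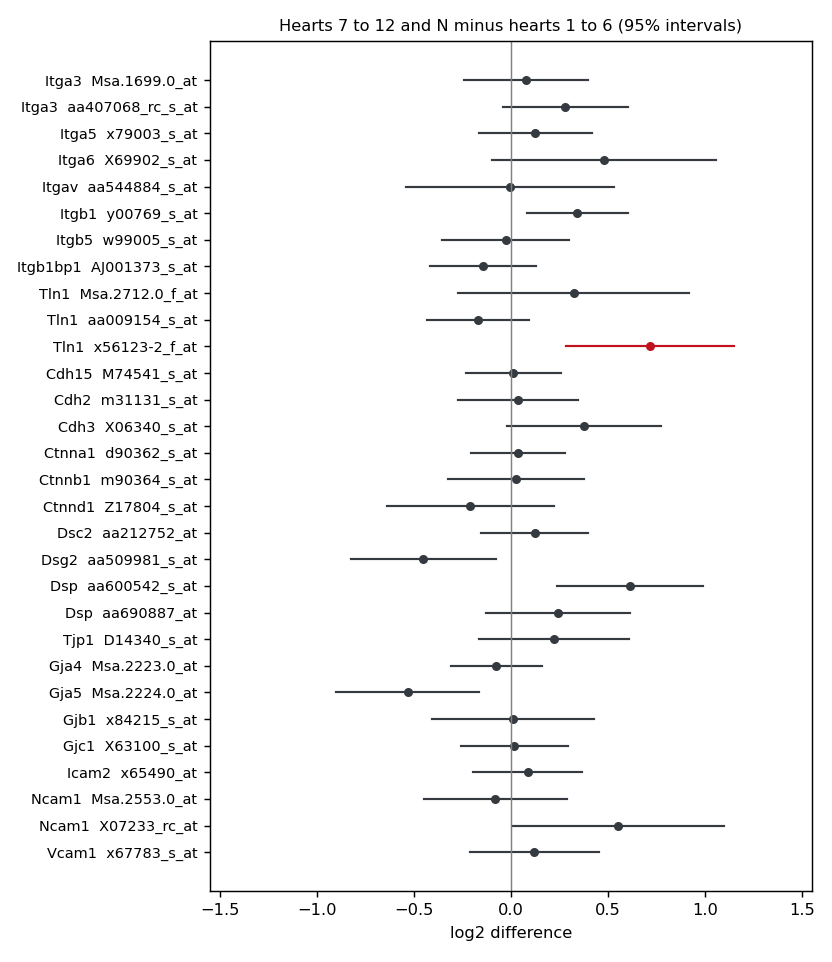
Log2 differences between later and earlier heart numbers for the 30 tested probe sets (points) with 95% intervals (lines), red where the adjusted p is under 0.05. Tln1 x56123-2_f_at, at 0.72, is the 1 red point.

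Marker genes of the heart's cell types also differed between the lots, where 7.14% of all probe sets were called. Of 13 cardiomyocyte probe sets 12 were lower in the later hearts (median -0.38, with probe sets of Myl2 and Tnnc1 called lower). Summed levels used only the marker probe sets without blank cells: 4 of cardiomyocytes, 5 of endothelium and 5 of fibroblast, cushion and smooth muscle. The cardiomyocyte sum ran from 174405 to 314217 in hearts 1 to 6 and from 76640 to 273582 in the later hearts. Endothelial markers were higher for 5 of 7 tested probe sets, with Eng and Tie1 called. The sum over the endothelial probe sets without blank cells ran from 13948 to 23922 in the early and from 23471 to 35823 in the later hearts. Fibroblast, cushion and smooth muscle markers were higher for 12 of 16, with Col1a2, Eln, Lum and Mgp called. The summed levels of those without blank cells overlapped (83071 to 115171 in the early and 72542 to 118279 in the later hearts). Epicardial Wt1, erythroid Alas2 and leukocyte Laptm5 were called higher, and Myog of skeletal muscle was called lower. Their lists were mixed: 2 of 4 epicardial, 2 of 6 erythroid, 2 of 3 leukocyte and 2 of 4 skeletal muscle probe sets were higher. The erythroid median was -0.31 and the skeletal muscle median 0.14, each opposite in direction to the gene called. Of 5 epithelial marker genes, Cdh1, Epcam and Krt18 were under the floor on every array, and 1 was above it on most arrays. The 1 epithelial probe set tested was higher by 0.26 in the later hearts and was not called. The part of these marker levels in the Tln1, Dsp, Gja5 and Itgb1 values was not tested. Ratios of 3' to 5' control probe sets did not pass between the lots (exact permutation p from 0.274 to 0.772).

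Whether the difference between null and wild type itself changed with heart number could be tested for 13 members, and 0 were called, against 0 of 1097 probe sets (0%). Tln1 x56123-2_f_at had the smallest p: null minus wild type was 0.25 in hearts 1 to 6, -0.95 in hearts 7 to 12 and -0.75 in the N hearts. The change was -1.14 ± 0.41, with an unadjusted p of 0.016 and an adjusted p of 0.996 in limma. It was the 1 of 13 members with an unadjusted p under 0.05, where 3.19% of all probe sets had one.

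Other genes of adhesion, from a list of 66 that shares no gene with the members, gave 31 tested probe sets of 26 genes. In null hearts 7 were higher and 24 lower than in wild type, with a median of -0.13 and 0 called (0.0223% of all probe sets were called and 48.6% were higher). In heterozygous hearts 8 were higher and 23 lower (median -0.16, 0 called, with 0% called and 47.3% higher over all). Against heterozygous hearts, 19 were higher and 12 lower in null hearts (median 0.05, 0 called, with 0% called and 53.4% higher over all). At an unadjusted p under 0.05 in limma, this comparison had 5 of 31 (5.79% over all). Null against wild type had 1 (2.4% over all) and heterozygous against wild type 2 (3.38% over all). In the later heart numbers 21 were higher and 10 lower (median 0.19), where 52.1% of all probe sets were higher. The 1 called of 31 is below the share over all probe sets (7.14%): Zyx, the focal adhesion protein zyxin, rose by 0.42 ± 0.10 (adjusted p = 0.0271 in limma). Actn1, an actin crosslinker of focal adhesions, differed by 0.47 ± 0.14 with an adjusted p of 0.0548. Cdh5, the cadherin of endothelium left out of the set, differed by 0.38 ± 0.16 between the lots (adjusted p = 0.148) and by -0.30 ± 0.21 between null and wild type.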

How the data were processed

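The authors deposited 1 intensity per probe set and array on a linear scale, for 13 hearts on an A and a B array. The software that made these values is not given in the sources used here. Of each array's values 10.1% to 29.5% were negative, and the arrays with no blank cell (7 A, 9 B) shared a trimmed mean of 1500, so the deposited values were already scaled. The number of arrays limits the precision.

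Blank cells were left missing and control probe sets (55 per array) were left out. The noise was the root mean square of each table's negative values (443.5 on A, 686.4 on B). Values under 2 times the noise were raised to that floor, then log2 was taken, so differences of dim probe sets are understated. limma 3.58.1 in R 4.3.3 (lmFit and eBayes with a variance trend, two-sided) was fitted to each whole table, 2771 probe sets on A and 1723 on B, with Benjamini-Hochberg adjustment over both and a threshold of 0.05. Errors of differences are standard errors. All 77 members matched RefSeq by gene ID with unchanged symbols.

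Members, gene lists and the split by heart number were chosen with earlier results of these data known. Members were named if called, if among the 4 smallest p-values per direction in a comparison, or if smallest in their role, together with the other tested probe sets of the same genes. Other members are given by values where they complete a role. Alternatives were other scaling, floors, filters and variance models, lot as a block, and leaving out arrays, lots or single hearts.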

Additional observations from a re-analysis of the deposited data

Results flagged for a closer look

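In groups of 4 or 5 hearts, 66 were examined for a single heart far from the rest, which chance alone finds in about 1 of 20 groups (5%), and 3 were found. Itga3 by its tested B-array probe set read 1301 in heterozygous heart 12, while the other heterozygous hearts read 1589 to 1599. Tln1 (x56123-2_f_at) read 326 in null heart 4, against 1730 to 1943 in the other null hearts. Gjb1 read 2861 in null heart N3, against 4202 to 4360 in the others. The value of Tln1 in null heart 4 and that of Itga3 in heart 12 lie under the floor, where values have no order.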

How the results depend on the processing

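No paired analysis was possible because the genotypes share no heart number. In the 3 genotype comparisons and the comparison of the genotype difference between lots, 0 members were called under every alternative that gave a value. The count between lots was 1 as reported. With a floor of 4 times the noise it was 0, but the called Tln1 probe set was then too dim to be tested. The count was also 0 with cyclic loess, with no filter, without a variance trend and without the mostly blank arrays. It was 0 too for the N hearts only and with scaling on the probe sets without blank cells, a setting chosen after seeing the data. It was 2 with a filter that asked for most of the arrays above the floor (Dsp and Tln1) and without the genotype term (Gja5 and Tln1). Leaving out single hearts gave 0 to 2: 0 without wild-type 1, 2, 7 or N1, heterozygous 5, or null 4 or 8, and 2 without null 3 or N3. Of 992 recomputed values for 41 pairs of a member and a comparison, 961 kept their direction and their side of the threshold. Another 16, all of Tln1 between lots, no longer passed, with adjusted p-values up to 0.154, and 7 (4 of Dsp, 2 of Itgb1 and 1 of Gja5) newly passed. The remaining 8 did not keep their direction. Between null and wild type the sign reversed for the second B-array probe set of Tln1 (-0.009 without null 8, and up to 0.815 when other hearts were left out) and for Cdh3 (0.023 with quantile scaling, 0.186 without the mostly blank arrays, 0.045 without null 3 and as low as -0.310 without other hearts). Tjp1 fell to 0.000 without wild-type 2, which has no direction and is not a reversal, and was up to 0.212 when other hearts were left out. Between lots the sign reversed for Itgb1bp1 (0.010 without wild-type 2, otherwise as low as -0.248) and Ctnnd1 (0.035 with the floor of 4 times the noise, 0.016 without the N hearts). Quantile scaling treats partly blank arrays as complete. With it 20 of 31 members were higher in null and 21 of 31 in heterozygous hearts than in wild type, whereas scaling on the probe sets without blank cells gave 13 of 29 and 9 of 29. The cause of these changes was not tested.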
